A study of Mus musculus with 2 samples.

Results

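Arterial endothelial cells are the lining cells of arteries and arterioles, and in these droplet data of whole hearts they were chosen by their RNA alone. A barcode was selected on 4 arterial genes, Gja5, Sema3g, Sox17 and Stmn2, of which at least 2 UMIs (unique molecular identifiers, one per captured RNA molecule) in sum were required, and on at least 2 UMIs of the endothelial genes Flt1, Cdh5, Pecam1 and Egfl7. Barcodes needed at least 200 detected genes and Ryr2 and Myh6, both of cardiomyocytes, under 0.6% of their UMIs. They could hold at most 1 UMI each of the endocardial genes Npr3, Tmem108 and Smoc1, of the lymphatic genes Reln, Mmrn1, Ccl21a and Prox1, and of the fibroblast genes Pdgfra, Col1a2 and Col3a1, each group counted in sum. This left 207 cells of 19865 barcodes with at least 200 detected genes, 85 in the Sham library and 122 in the TAC library.

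The hearts came from C57BL/6 mice, and the question of the 2 libraries was how the heart's cells differ after pressure overload. In the TAC group (transverse aortic constriction), male mice aged 8 weeks had the aortic arch tied around a needle and were studied 6 weeks later. The Sham group had the same surgery without the tie according to the sample labels, while the series design calls these mice uninjured, and their age and sex were not given separately. Cells of 3 to 5 hearts were combined into 1 library per group, so no spread between animals could be measured and surgery and library cannot be told apart.

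With 1 library per group no test between groups was made. Levels are counts of UMIs of a gene per 1000000 UMIs of the summed cells (CPM), and they are given with exact 95% Poisson intervals, ratios of levels with exact conditional binomial intervals and shares of cells with exact Clopper-Pearson intervals. These intervals cover counting error only, not the differences between mice. A difference is called past 2-fold by size alone.

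Arterial endothelium is set up early in development by VEGF and Notch signalling, with SOX17 upstream of Notch genes and with EphrinB2 as the classic arterial surface mark. Arterial cells carry high shear stress, are joined by connexin 40, the product of Gja5, and rest on an elastic layer to which they contribute elastin and fibulins. Sema3g encodes a secreted semaphorin of arterial endothelium, and Stmn2 encodes a stathmin, a regulator of microtubules best known from neurons.

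The members held 145703 UMIs in Sham and 227785 in TAC, with a median of 1518 and 1598.5 UMIs per cell and a range of 537 to 4581 and of 550 to 8349. They were 4.44% (3.56 to 5.47) of 1913 endothelial barcodes in Sham and 5.11% (4.26 to 6.07) of 2387 in TAC, a ratio of 1.15 with overlapping intervals. Mitochondrial genes gave 1.26% of the members' UMIs in Sham and 1.11% in TAC. The doublet caller Scrublet marked 4 of the 85 Sham members and 5 of the 122 TAC members, which were kept here and left out as an alternative. Both libraries shared 32 cell barcodes, 1 of which was a Sham member and none of which was a member in both.

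For comparison, vascular endothelial barcodes that passed the same limits but held 0 UMIs of the 4 arterial genes are called marker-negative cells. There were 1399 in Sham and 1655 in TAC, with medians of 1147 and 1225 UMIs, and capillary and venous cells are not separated in them. A further 202 Sham and 231 TAC cells held exactly 1 arterial UMI.

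The 4 genes that chose the cells were not seen equally in both libraries, and these values describe the selection and test nothing. Gja5 lies on chromosome 3 at 96904693 to 97077416 (plus strand) and Stmn2 on the same chromosome at 8509360 to 8561606 (plus strand), both in the GRCm38 coordinates of GENCODE M21. Sema3g lies on chromosome 14 at 31217860 to 31230352 (plus strand) and Sox17 on chromosome 1 at 4490931 to 4497354 (minus strand). All 4 are protein-coding genes, and antisense genes overlap Gja5 and Sox17, whose reads cannot be told apart if strand was not used in counting.

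Sox17 stood at 776 CPM in Sham members and 461 in TAC members. Stmn2 stood the other way round, at 432 CPM in Sham and 694 in TAC. Gja5 was at 130.4 and 268 CPM, and Sema3g at 371 and 219.5, in Sham and TAC. Sox17 had a UMI in 75.3% of Sham members and 53.3% of TAC members, while Stmn2 had one in 38.8% and 65.6%. The Sham members were thus found mainly through Sox17 and the TAC members mainly through Stmn2.

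**Figure D1:**
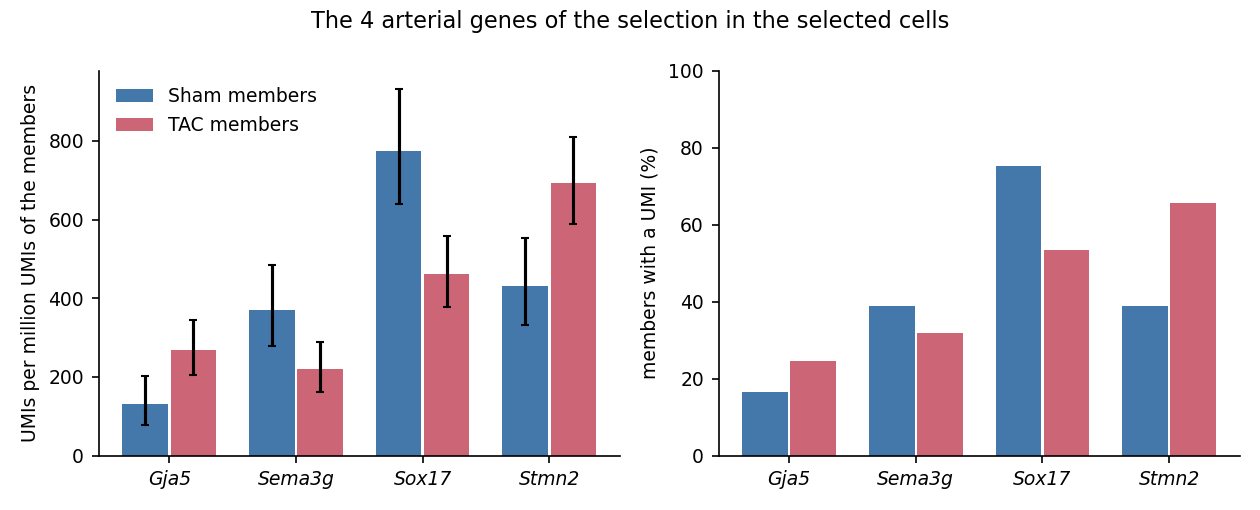
Level of the 4 arterial genes of the selection (left, CPM of the members; bars with exact 95% Poisson intervals) and share of members with a UMI (right, percent) in 85 Sham and 122 TAC members. Sox17 is the most often seen gene in Sham (75.3% of members) and Stmn2 in TAC (65.6%).

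Most members passed the threshold narrowly. A sum of exactly 2 was found in 51 of 85 Sham members and 68 of 122 TAC members, and the highest sums were 11 and 19. Only 1 of the 4 genes was seen in 40 Sham and 53 TAC members, most often Sox17 alone in Sham (25 cells) and Stmn2 alone in TAC (28 cells). All 4 genes were seen together in 2 Sham cells and 7 TAC cells.

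The label was set beside 8 arterial genes that the selection did not use, namely Hey1, Bmx, Efnb2, Dll4, Gja4, Unc5b, Cxcl12 and Fbln5. They were picked with earlier results of these data known, so they describe the members and are no independent check. Their summed level was 373 CPM in Sham cells with no arterial UMI, 613 with 1, 619 with 2, 1185 with 3 or 4 and 1925 with 5 or more. In TAC the same steps gave 388, 791, 815, 1257 and 1817 CPM. For these 8 genes the level just inside the threshold, at a sum of 2, was close to that just outside it, at a sum of 1, with intervals of 463 to 812 against 527 to 709.9 in Sham and 661 to 994 against 699 to 892 in TAC. A longer list of 29 arterial genes outside the selection did separate these steps, at 6793 CPM (6498 to 7099) for a sum of 1 and 7933 (7342 to 8560) for a sum of 2 in Sham, and at 8350 (8044 to 8664) and 10639 (10061 to 11242) in TAC. Cells with a sum of 1 also stood above the marker-negative cells for both lists, so part of this RNA lay outside the threshold. The 8 genes did not move alike. Cxcl12, alone of the 8, was seen less often in members than in cells with a sum of 1. Its shares were 14.1% against 20.3% in Sham and 16.4% against 25.1% in TAC. Bmx fell off outside the threshold, from 192 and 237 CPM in members to 37.7 and 17.8 with a sum of 1.

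**Figure D2:**
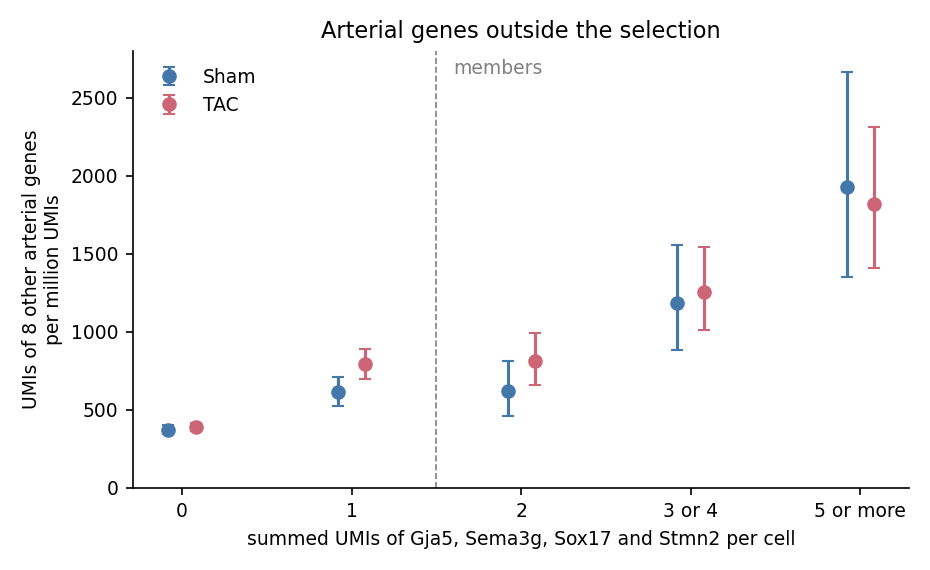
Summed level of 8 arterial genes outside the selection (y axis, CPM, exact 95% Poisson intervals) against the summed UMIs of Gja5, Sema3g, Sox17 and Stmn2 per cell (x axis) in Sham and TAC; cells right of the dashed line are members. The level climbs from 373 and 388 at a sum of 0 to 1925 and 1817 at 5 or more, and the steps 1 and 2 nearly coincide.

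At least 1 UMI of these 8 genes was found in 51 of 85 Sham members and 75 of 122 TAC members. After thinning every cell to 1000 UMIs and leaving out 19 and 16 shallower members, 56.1% (43.3 to 68.3) of Sham members and 50% (40.1 to 59.9) of TAC members still had one, against 60% and 61.5% unthinned. The thinned share was 27.1% in Sham and 26.7% in TAC marker-negative cells, with 554 and 556 cells left out, against 32% and 32.6% unthinned. Endocardial cells, at 40.8% and 42.3% thinned and 53.5% and 60.2% unthinned, and lymphatic endothelial cells, at 46% and 43.2% thinned and 64.9% and 71.3% unthinned, had intervals that overlapped those of the members, so the 8 genes did not set the members apart from these cells. In all other barcodes, mostly not endothelial, it was 7.89% and 8.3% after thinning against 15.2% and 16.4% before, with median depths of 2282 and 2543 UMIs.

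Sequence near the start of arterial genes is shown for genes whose values carry the account, Gja5 and Sema3g of the selection and Bmx and Fbln5, the protein-coding arterial genes with the highest ratios outside it. The windows come from RefSeq (GRCm38.p6) and run from 250 bases before to 50 after the start, read 5′ to 3′ on the gene's strand. Gja5 was read from chr3:97032152-97032451 (plus strand), Sema3g from chr14:31217623-31217922 (plus strand), Bmx from chrX:164258144-164258443 (minus strand) and Fbln5 from chr12:101819070-101819369 (minus strand). Capitals mark TGGGAA, the core letters bound by RBPJ, the DNA-binding partner of Notch, on either strand.
Gja5: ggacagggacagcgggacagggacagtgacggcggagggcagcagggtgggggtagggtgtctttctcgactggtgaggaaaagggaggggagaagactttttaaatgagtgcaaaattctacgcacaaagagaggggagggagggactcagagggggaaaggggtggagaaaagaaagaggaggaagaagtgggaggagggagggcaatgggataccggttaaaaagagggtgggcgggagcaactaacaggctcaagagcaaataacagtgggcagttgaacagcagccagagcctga
Sema3g: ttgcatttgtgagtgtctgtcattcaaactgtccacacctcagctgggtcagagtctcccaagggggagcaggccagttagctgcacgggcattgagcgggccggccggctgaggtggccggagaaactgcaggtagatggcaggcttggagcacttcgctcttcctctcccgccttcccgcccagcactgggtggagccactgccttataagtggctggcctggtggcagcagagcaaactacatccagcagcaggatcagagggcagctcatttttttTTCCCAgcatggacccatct
Bmx: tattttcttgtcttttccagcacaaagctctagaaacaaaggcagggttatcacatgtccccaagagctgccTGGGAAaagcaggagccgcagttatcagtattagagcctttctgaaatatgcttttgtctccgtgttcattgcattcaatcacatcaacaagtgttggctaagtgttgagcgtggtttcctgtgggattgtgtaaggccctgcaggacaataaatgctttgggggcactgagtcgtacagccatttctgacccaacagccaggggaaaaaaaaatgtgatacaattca
Fbln5: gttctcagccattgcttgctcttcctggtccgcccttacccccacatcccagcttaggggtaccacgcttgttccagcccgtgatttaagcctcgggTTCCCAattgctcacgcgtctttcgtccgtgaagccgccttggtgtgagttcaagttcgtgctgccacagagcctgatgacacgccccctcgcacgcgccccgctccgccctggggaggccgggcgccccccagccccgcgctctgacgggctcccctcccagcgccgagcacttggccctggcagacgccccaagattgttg
The 6 letters began 178 bases before the start in Bmx, 153 before it in Fbln5 and at base 31 after it in Sema3g, and were not in the Gja5 window. Fbln5 has another start in the table, with a window at chr12:101818435-101818734 (minus strand) that does not hold them. They were in 4 of 14 windows of 9 arterial genes (Bmx, Fbln5, Nebl and Sema3g), while 25.6% of all 32851 windows in the table held them. ACAATG, letters bound by SOX factors, were in 2 of the 14 windows (Jag1 and Nebl) and in 12.6% of all windows, and no window of these genes held both motifs. A match describes letters only. The 14 windows belong to 9 of 15 genes looked up, the 4 of the selection and the 11 arterial genes past 2-fold described next.

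Arterial genes that had no part in the selection were higher in the members than in marker-negative cells, in both libraries. Of 29 such genes 25 were measured well enough, with a mean of at least 30 CPM over the groups, and 11 were at least 2-fold higher in both libraries and none at least 2-fold lower. Over all 5619 genes compared, 94 (1.67%) were higher and 45 (0.801%) lower by that call. The list's median log2 ratio was 1.19 in Sham and 1.20 in TAC, beside 0.04 and 0.02 over all genes. Summed over the list, the members stood 2.04-fold (1.94 to 2.14) above marker-negative cells in Sham and 2.14-fold (2.05 to 2.23) in TAC. The genes of the list were picked with earlier results of these data known, so their direction is no independent evidence.

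Bmx, a Tec-family kinase of arterial endothelium and endocardium, was at 192 CPM in Sham members and 237 in TAC members, from 28 and 54 UMIs. Marker-negative cells held 9.29 and 7.81 CPM, which made the members 20.7-fold (10.9 to 40.3) and 30.3-fold (17.5 to 55.0) higher. Bmx did not single out arterial cells, since endocardial cells held 475 and 462 CPM. Fbln5, which encodes fibulin-5 of the elastic fibre, was at 109.8 and 219.5 CPM in the members against 6.56 and 6.51 in marker-negative cells. That is 16.7-fold (7.43 to 38.8) higher in Sham and 33.7-fold (18.6 to 64.6) in TAC. Lymphatic cells also held Fbln5, at 183 and 132 CPM.

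Notch ligands and targets were among the genes past 2-fold. Hey1, a Notch target and repressor of venous fate, stood 7.67-fold (3.28 to 17.2) and 9.27-fold (3.71 to 22.9) above marker-negative cells, from 11 UMIs in each library. Jag1, a Notch ligand, stood 3.2-fold (2.01 to 4.92) and 4.88-fold (3.5 to 6.76) higher. Of 25 genes of the Notch pathway 17 were compared, and Hey1 and Jag1 were the only ones higher past 2-fold while Notch3, a receptor of mural cells, was lower at 0.325-fold (0.066 to 0.973) and 0.271-fold (0.073 to 0.71). The receptor Notch1 was 1.56-fold and 1.93-fold and the tip and arterial ligand Dll4 1.55-fold and 1.61-fold. Efnb2, which encodes EphrinB2, missed the call in Sham at 1.92-fold (1.33 to 2.72) and reached 2.33-fold (1.75 to 3.05) in TAC.

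Genes of the elastic wall formed a second group. Eln, the elastin gene, was at 1180.5 and 1111 CPM in the members against 328 and 289 in marker-negative cells, 3.6-fold (3.02 to 4.27) and 3.85-fold (3.32 to 4.45). Mgp, which encodes an inhibitor of calcification, was 8.14-fold higher in Sham and 2.79-fold in TAC, but 43 of the 81 Sham UMIs lay in 1 cell. Without the cell that held the most in each library, Mgp was 3.87-fold and 2.51-fold higher. Of 21 elastic fibre genes 8 were compared, and Eln, Fbln5 and Mgp were the 3 past 2-fold, all upward.

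Among signals that act on vessels, Edn1, the gene of the constrictor endothelin-1, was 5.41-fold (3.11 to 9.18) higher in TAC, while in Sham it rested on 5 UMIs at 2.24-fold (0.676 to 5.88). Vegfc, a growth factor better known for lymphatic vessels, was 2.07-fold (1.69 to 2.51) and 2.49-fold (2.16 to 2.86) higher. Without the Sham cell that held the most, Edn1 was 1.81-fold and Vegfc 1.86-fold higher in Sham, below the call. Alpl, encoding tissue-nonspecific alkaline phosphatase, was 3.69-fold and 3.43-fold higher, and Clu, encoding the chaperone clusterin, 4.35-fold and 6.07-fold. Nrp1, the VEGF co-receptor often used as an arterial mark, was 0.904-fold (0.755 to 1.07) and 0.768-fold (0.671 to 0.877).

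**Figure D3:**
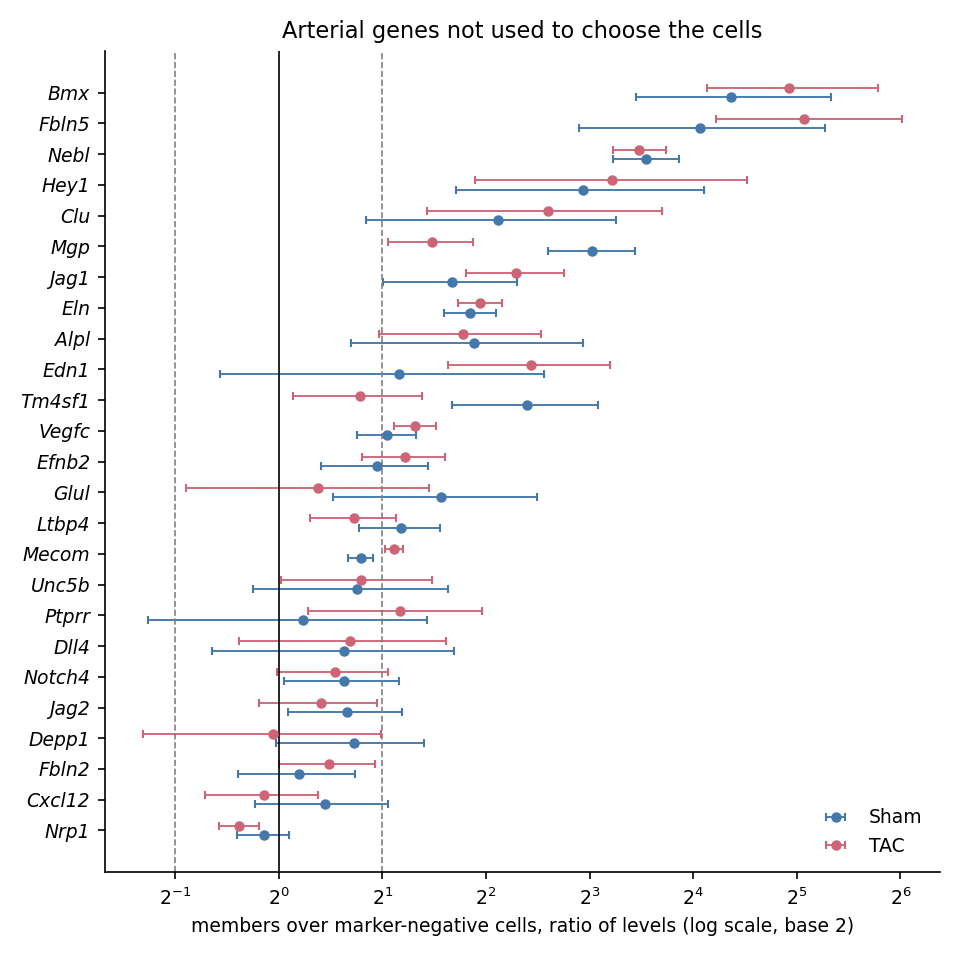
Ratio of the members' level to that of marker-negative cells (x axis, log scale) for 25 arterial genes not used by the selection, in Sham and TAC, with exact 95% intervals; dashed lines stand at 2-fold higher and lower. Bmx and Fbln5 lie farthest to the right (20.7 and 16.7 in Sham) and Nrp1 lies left of 1 in both libraries.

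Nebl had the most UMIs of the 12 genes furthest above marker-negative cells. It encodes nebulette, an actin-binding Z-disc protein of cardiomyocytes, and a related shorter product. Nebl was at 1119 and 1159 CPM in Sham and TAC members against 95.6 and 104 in marker-negative cells, 11.7-fold (9.39 to 14.6) and 11.2-fold (9.34 to 13.4) higher. It was also at 434 and 486 CPM in all other barcodes, which hold the cardiomyocytes. The members' summed level of 12 cardiomyocyte markers, without Ryr2 and Myh6 of the selection, was below that of marker-negative cells, 2684 against 3085 CPM in Sham and 1813 against 2323 in TAC.

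The other protein-coding genes furthest above marker-negative cells had varied roles. Eps8l2, an actin regulator, stood 23.7-fold (10.0 to 60.4) higher in Sham and 18.4-fold (9.9 to 35.5) in TAC. Tmem100, a BMP9-induced membrane protein of arteries, stood 17.9-fold (6.16 to 55.5) and 15.6-fold (7.36 to 34.0) higher. Tmem100 did not single out the members, which held 68.6 and 87.8 CPM. Endocardial cells held 60.9 and 63.0 CPM, with overlapping intervals. Pcsk5, a proprotein convertase, was at 219.6 and 465 CPM in the members and at 18.6 and 30.4 in marker-negative cells, 11.8-fold (7.06 to 19.7) and 15.3-fold (11.2 to 21). Endocardial cells held Pcsk5 at 146 (108 to 194) and 161 (131 to 195) CPM, and in Sham this interval overlapped that of the members (150 to 310). Atp2a3, a calcium pump of the endoplasmic reticulum, was 14.4-fold and 11.2-fold higher, Col18a1, whose C-terminal fragment is endostatin, 11.2-fold and 9.63-fold, and the adaptor gene Afap1l2 9.54-fold and 9.41-fold. Lymphatic cells held Col18a1 at 54.1 and 89.1 CPM, beside 54.9 and 87.8 in the members.

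The 3 remaining genes of the 12 were long noncoding RNAs. Mannr lies on chromosome 3 at 29891014 to 29924191 on the plus strand and overlaps Gm33206, which lies on the minus strand at 29773466 to 29893177, so their reads may not be separable. Mannr was at 247 CPM in Sham and 206 in TAC members and 41.1-fold (20.5 to 89.5) and 25-fold (14.4 to 45.1) above marker-negative cells. Gm33206 had 0 UMIs in Sham marker-negative cells and was at least 29.3-fold higher in the Sham members, taking 3 UMIs in those cells as the floor, and 52.6-fold (19.9 to 175) higher in TAC. Gm38477, with 6 and 18 UMIs in the members and 3 in the marker-negative cells of each library, was 25.1-fold (5.36 to 155) and 60.7-fold (17.7 to 322).

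Transcription factors and shear-related regulators were next. Prdm16, encoding a zinc finger factor of arterial endothelium and of heart muscle, was at 316 and 536 CPM, 6.64-fold (4.54 to 9.6) and 13.9-fold (10.5 to 18.4) above marker-negative cells. It was also at 309 and 235 CPM in all other barcodes. Of 28 transcription factor genes of endothelial specification outside the selection 23 were compared, and Prdm16, Hey1 and Gata2 were higher past 2-fold and none lower. Mecom, the PRDM16 relative linked to arterial identity, was 1.73-fold (1.59 to 1.87) and 2.16-fold (2.03 to 2.3).

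Smad6, the inhibitor of BMP signals, was at 508 and 663 CPM in the members, 6.83-fold (5.08 to 9.13) and 7.45-fold (6 to 9.24) above marker-negative cells, and endocardial cells held 374 and 666 CPM. Of 19 flow-responsive genes outside the selection 16 were compared, and Smad6, Smad7, Trpv4 and Adamts1 were past 2-fold upward and none downward. Trpv4, a calcium channel opened by stretch and flow, was 2.51-fold (1.53 to 3.95) and 3.67-fold (2.5 to 5.29). Klf2 and Klf4, the shear-induced factors, did not reach 2-fold, with Klf2 at 1.42-fold and 1.63-fold and Klf4 at 1.28-fold and 1.37-fold. Tgfb2 was 4.3-fold (2.28 to 7.75) higher in TAC but rested on 3 UMIs in Sham, at 2.35-fold (0.44 to 8.23).

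Matrix genes of the vessel wall differed by member. Lama3, the laminin alpha-3 chain, was at 233 and 255 CPM and 6.89-fold (4.39 to 10.6) and 6.66-fold (4.7 to 9.39) higher, while endocardial cells held 9.13 and 3.15 CPM and all other barcodes 2.13 and 1.74. Col8a1 was 2.82-fold (1.95 to 4) and 4.48-fold (3.5 to 5.71) higher. Fn1, the fibronectin gene, was 5.26-fold (2.85 to 9.31) and 4.97-fold (3.07 to 7.88). Of 19 basement membrane genes 16 were compared, and Lama3, Col8a1 and Col18a1 were higher and none lower, while the list's summed level was 0.926-fold in Sham and 0.848-fold in TAC. Ptprj, a receptor tyrosine phosphatase chosen after its values were seen, was 4.48-fold (3.66 to 5.47) and 7.83-fold (6.77 to 9.06) higher.

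**Figure D4:**
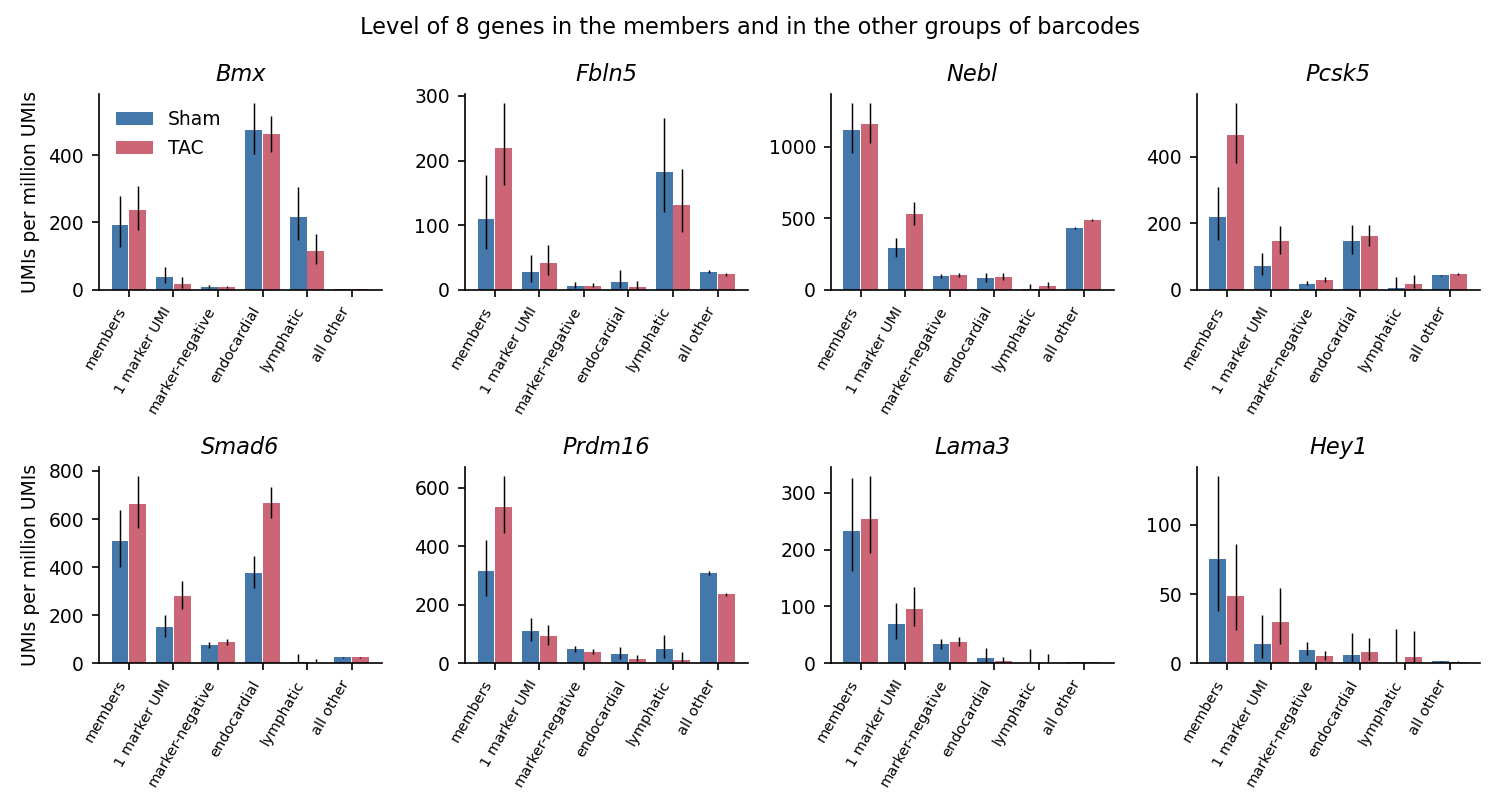
Level of 8 genes (y axes, CPM, exact 95% Poisson intervals) in the members, in vascular endothelial cells with 1 or 0 arterial UMIs, in endocardial and lymphatic endothelial cells and in all other barcodes, for Sham and TAC. Lama3 and Hey1 are highest in the members, Bmx is higher in endocardial cells (475 CPM in Sham), and Nebl and Prdm16 are also present in the other barcodes.

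Capillary genes were present in the members rather than lost. Of 19 capillary genes 18 were compared, none was past 2-fold higher and Aqp1 and Cyp4b1 were lower. Aqp1, the water channel of capillaries, was 0.379-fold (0.223 to 0.604) in Sham and 0.489-fold (0.334 to 0.693) in TAC, and Cyp4b1 0.302-fold and 0.495-fold. The list's summed level was 7673 CPM in Sham members against 7837 in marker-negative cells, a ratio of 0.979 (0.92 to 1.04), and 5378 against 7391 in TAC, a ratio of 0.728 (0.686 to 0.771). Kdr, the main VEGF receptor, was 0.663-fold and 0.633-fold, and the venous factor Nr2f2 0.498-fold (0.225 to 0.962) and 0.647-fold (0.395 to 1.01). Of 14 venous genes 9 were compared and none was past 2-fold in both libraries.

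Other genes furthest below marker-negative cells included the cell adhesion gene Lsamp, with 1 UMI in the members of each library against 112 and 85.1 CPM in marker-negative cells, a ratio of 0.0613 (0.00154 to 0.345) and 0.0516 (0.0013 to 0.291). Egfr, the EGF receptor gene, was 0.277-fold (0.0564 to 0.827) and 0.247-fold (0.0502 to 0.738). Adamts12 had 0 UMIs in Sham members, at least 3.37-fold lower when 3 UMIs are taken as the floor, and was 0.278-fold (0.0565 to 0.835) in TAC. Mdga2, Scarb2, Cpe and Rerg were also among the 8 lowest, with 1 to 6 UMIs each in the members of a library. Nrp2, a semaphorin and VEGF-C co-receptor of veins and lymphatics, was 0.436-fold (0.297 to 0.62) and 0.42-fold (0.309 to 0.558).

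Lsamp and Egfr were higher in all other barcodes, at 224 and 281 CPM in Sham, than in marker-negative cells, and RNA of other cell types was counted in the members. All 8 T cell markers were at 0 in both libraries. Of 8 smooth muscle markers 5 in Sham and 3 in TAC were at 0, Acta2 among them, and the list's level was 233 and 215 CPM against 333 and 373 in marker-negative cells. The 7 fibroblast markers outside the selection stood at 302 and 259 CPM against 375 and 466, with Tcf21 at 0 in both libraries. Pericyte markers stood at 405 and 119 CPM against 516.5 and 484, and 34 of the 59 Sham UMIs lay in 1 cell. Other lists were not lower throughout. The 3 endocardial markers outside the selection stood at 48.0 and 52.7 CPM against 41.0 and 14.8. In TAC that was 3.57-fold (1.68 to 7.07), from 12 UMIs. A list of 11 endocardial genes stood at 226 and 250 CPM against 221 and 183. Mesothelial and macrophage markers were lower in Sham, at 34.3 against 63.4 and 165 against 388 CPM. In TAC they stood at 132 against 87.7 and 465 against 431 CPM. The part of these cells in the ratios was not tested.

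Members found through different genes differed among themselves. Stmn2 or Gja5 had a UMI in 43 Sham and 94 TAC members, and only Sox17 or Sema3g in 42 and 28. Cells with Stmn2 or Gja5 held capillary genes at 6415 CPM in Sham and 4908 in TAC, and cells with Sox17 or Sema3g alone at 9184 and 7305. Ptprj showed the opposite order, at 1409 and 1627 CPM with Stmn2 or Gja5 and at 347 and 784 without them. Lama3 followed Ptprj, at 339.6 and 300.3 against 106 and 67.2. The 8 arterial genes outside the selection differed less, at 994 (787 to 1239) and 1185 (1032 to 1353) against 906 (692 to 1167) and 829 (584 to 1143). These subsets were formed after their values were seen and are described without a test.

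TAC and Sham members were compared over 1620 genes with at least 50 UMIs in the members of both libraries together. In TAC 49 genes (3.02%) were at least 2-fold higher and 28 (1.73%) at least 2-fold lower. All 77 counting intervals lay past 1, but a 2-fold ratio at 50 UMIs already brings this about, so it adds no support. The median log2 ratio was 0.02 in the members. These counts describe 2 libraries that differ in marker makeup as well as in surgery, and 1 member carried many of the higher values, as given below. The genes counted also depended on the selection, since with 3 or more arterial UMIs none of the 21 genes then higher and 4 of the 17 then lower were among these 49 and 28, and with Sox17 left out of the sum 7 of 30 and 4 of 18 were.

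Zbtb16 and Fkbp5, both induced by glucocorticoids, were lower in TAC members and in TAC marker-negative cells. Zbtb16, a transcription factor, was at 1894 CPM in Sham and 404 in TAC members, a ratio of 0.213 (0.167 to 0.271), and at 0.286 (0.268 to 0.305) in marker-negative cells. Fkbp5, the co-chaperone of the glucocorticoid receptor, was at 261 and 83.4 CPM, a ratio of 0.32 (0.174 to 0.569), beside 0.428 in marker-negative cells. Of 17 glucocorticoid-induced genes 7 were compared, and these were the 2 past 2-fold. The list's summed ratio of 0.481 (0.422 to 0.549) rested largely on Zbtb16, which gave 276 of its 533 UMIs in Sham and 92 of its 401 in TAC. Zbtb16 was lower within both subsets of members, from 1811 to 371 CPM in cells with Stmn2 or Gja5 and from 1994 to 538 in the others.

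Of the arterial genes outside the selection 16 were compared, none was past 2-fold in either direction between TAC and Sham members, and the median log2 ratio was 0.01. Fbln5 stood at 109.8 and 219.5 CPM, a ratio of 2 (1.12 to 3.76) that fell just short of the call before rounding, and Prdm16 at a ratio of 1.7 (1.2 to 2.44). Within members with Stmn2 or Gja5, Fbln5 went from 88.1 to 246 CPM and Prdm16 from 340 to 595. Within the others, Fbln5 went from 136 to 112 CPM, on 9 and 5 UMIs, and Prdm16 from 287 to 291. Pcsk5 was 2.12-fold (1.42 to 3.25) higher in TAC members and 1.64-fold (1.07 to 2.54) in marker-negative cells. Mgp was at 556 and 285 CPM, a ratio of 0.513 (0.365 to 0.72), but 0.972 (0.635 to 1.5) without the top cell of each library.

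Nos3, the endothelial nitric oxide synthase, was at 172 CPM in Sham and 351 in TAC members, a ratio of 2.05 (1.29 to 3.35) that was 2.18 (1.34 to 3.69) without the top cells. It was 1.11 (0.965 to 1.28) in marker-negative cells. Within members with Stmn2 or Gja5, Nos3 went from 214 (125 to 342) to 377 (293 to 477) CPM. Within the others it went from 121 (52.2 to 238) to 246 (123 to 441). The part of the members' makeup in the ratio was not tested. Nos3 was the only one of 15 flow-responsive genes compared that passed 2-fold, and Klf2 stood at 1.78 (1.13 to 2.87). Vegfa was lower at 0.49 (0.272 to 0.873), and at 0.602 (0.315 to 1.15) without the top cells, beside 0.488 (0.399 to 0.596) in marker-negative cells.

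Capillary and lipid-handling genes were lower in TAC members without reaching the call as lists. The capillary genes summed to a ratio of 0.701 (0.646 to 0.761), and Sparcl1, at 0.484 (0.285 to 0.813), was the only one of 11 compared past 2-fold. Of 6 lipid uptake genes compared none was past 2-fold, with Cd36, the fatty acid translocase, at 0.678 (0.588 to 0.782), Fabp4 at 0.643 (0.532 to 0.777) and Lpl at 0.512 (0.358 to 0.728). In marker-negative cells those 3 ratios were 0.985, 0.955 and 0.856. The makeup of the members also differed between the libraries. Cells with Stmn2 or Gja5, lower in capillary genes, were 50.6% of Sham and 77.0% of TAC members. Within those cells the capillary list went from 6415 to 4908 CPM, and within the others from 9184 to 7305. The part of the makeup in the ratios was not tested.

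Of the 10 genes furthest higher in TAC, several rested on 1 cell. The TAC member with the most macrophage marker UMIs held 45 of the 106 in all TAC members, and it was the deepest at 8349 UMIs, held 2 arterial and 16 endothelial UMIs, and was marked as a doublet. The same cell held 47 of the 61 UMIs of Dock2, a leukocyte guanine exchange factor, 97 of the 141 of Rbpj, 29 of the 51 of Ubash3b, 45 of the 71 of Itsn1 and 37 of the 102 of Zeb2. Macrophage markers stood at 165 CPM in Sham members, with 4 of 10 markers at 0, and at 465 in TAC members, with none at 0.

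With all members the TAC to Sham ratio was 9.75 (3.62 to 36.9) for Dock2, 5.44 (2.33 to 15.5) for Ubash3b, 3.92 (2.51 to 6.39) for Rbpj and 2.84 (1.63 to 5.23) for Itsn1. Without that cell the ratios were 2.32 (0.73 to 9.7), 2.43 (0.957 to 7.34), 1.27 (0.751 to 2.2) and 1.08 (0.557 to 2.15). Rbpj, the effector of Notch, was thus past 2-fold through 1 cell. F13a1, a factor XIII gene of resident macrophages, was 3.55 (1.73 to 8.22) with that cell and 2.58 (1.22 to 6.11) without it, and its log2 ratio was -0.02 without the cells marked as doublets.

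The others of the 10 rested less on the macrophage-rich TAC cell, which held 13 of the 65 UMIs of Osbpl8 and 4 of the 43 of Nup98. Gm48678, antisense to Itsn2, was at 75.5 and 320.5 CPM, a ratio of 4.24 (2.24 to 8.88), and was also higher in marker-negative cells at 2.64 (2.22 to 3.16). Nup98, a nuclear pore gene, was seen in 7 Sham and 29 TAC members at a ratio of 3.44 (1.6 to 8.47). Ppp1cb, a protein phosphatase 1 catalytic subunit, was seen in 11 and 38 members at 2.99 (1.58 to 6.12), beside 1.04 (0.867 to 1.24) in marker-negative cells. Osbpl8 stood at 3.2 (1.75 to 6.33), and at 2.66 (1.43 to 5.32) without the macrophage-rich cell. Kirrel3, an adhesion gene, stood at 2.77 (1.46 to 5.71). It was seen in only 6 Sham and 15 TAC members, with 11 of 52 TAC UMIs in 1 cell. Without the cells marked as doublets the log2 ratios of Gm48678, Nup98, Ppp1cb, Osbpl8 and Kirrel3 were 1.93, 1.5, 1.6, 1.23 and 1.43.

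Among the 10 genes furthest lower in TAC, after Zbtb16 and Fkbp5, Camk1d, a calmodulin-dependent kinase gene, was at 2224 and 944 CPM, a ratio of 0.424 (0.356 to 0.506), beside 0.49 in marker-negative cells. Rn18s-rs5 and Mir6236, annotations that overlap ribosomal RNA sequence, were at 0.406 and 0.414 in the members and 0.504 and 0.557 in marker-negative cells. Gpc6, a glypican of fibroblasts, stood at 0.256 (0.159 to 0.402), with 24 of 70 Sham UMIs and 16 of 28 TAC UMIs in 1 cell each. Without those cells Gpc6 stood at 0.166 (0.0799 to 0.318). Lama2 stood at 0.335 (0.19 to 0.574), with 23 of 42 Sham UMIs in 1 cell, and at 0.562 (0.274 to 1.14) without the top cells.

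Tinagl1, a basement membrane protein gene, was at 219.6 and 83.4 CPM, a ratio of 0.38 (0.203 to 0.691), beside 1.06 (0.868 to 1.3) in marker-negative cells. Oas2, an interferon-induced gene, stood at 0.388 (0.211 to 0.696) and Zfp445 at 0.413 (0.223 to 0.747), beside 0.775 and 0.638. Interferon and MHC genes as a list did not pass, with 0 of 6 compared past 2-fold and a summed ratio of 0.859 (0.73 to 1.01).

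**Figure D5:**
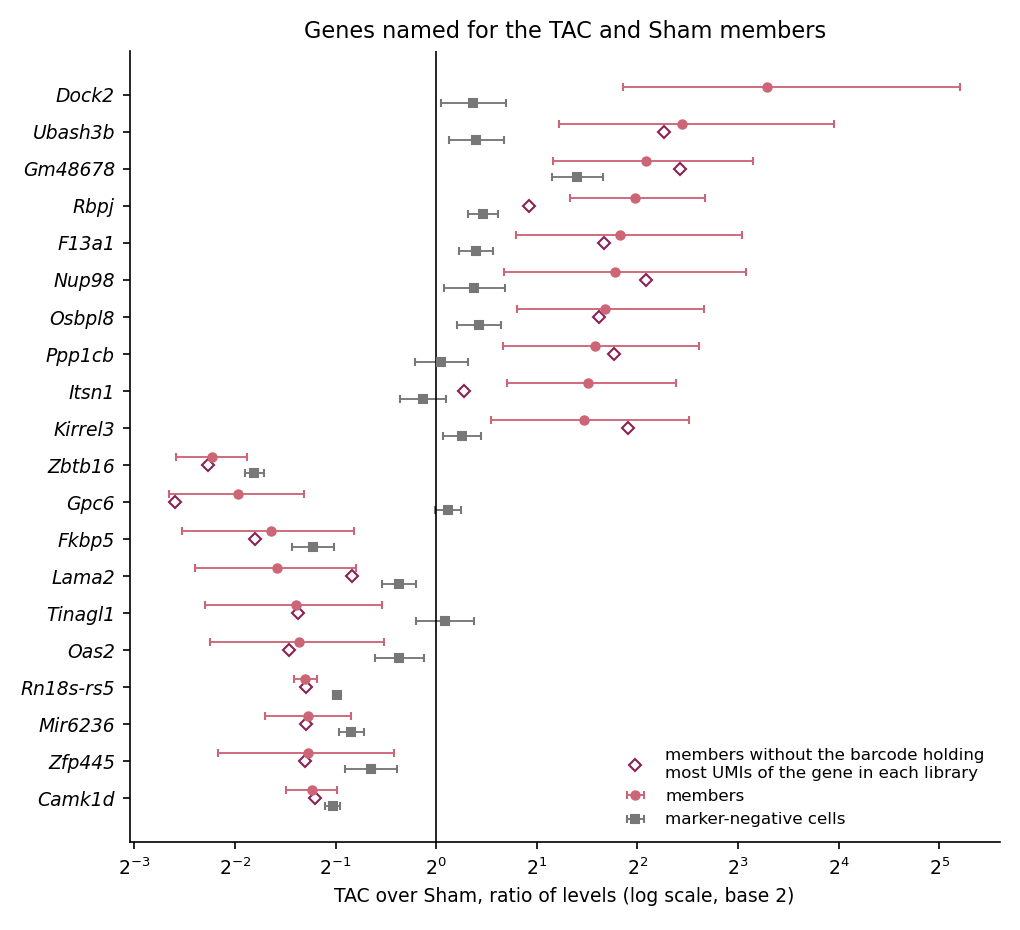
TAC to Sham ratio of levels (x axis, log scale) for the 10 genes furthest higher and the 10 furthest lower in TAC members, in the members, in the members without the cell holding most UMIs of the gene in each library, and in marker-negative cells, with exact 95% intervals; Dock2 has no diamond because no Sham UMI is left. Rbpj and Itsn1 move from 3.92 and 2.84 to 1.9 and 1.21 without those cells, and Zbtb16 lies near 0.2 in the members with or without them.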

How the data were processed

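The deposited files held, for each library, a matrix of counts (whole UMIs per gene and barcode, not normalized) for 55357 gene identifiers and 9935 Sham and 9932 TAC barcodes, with 28146691 and 29108986 UMIs. By the submitters' processing notes the authors made these counts with Cell Ranger 7.1.0, while the study's methods name an earlier release and another kit version. The build, the use of intronic reads and of strand, and the barcode filter are not given in the sources used here. Identifiers matched GENCODE M21 (GRCm38) for 94.1%.

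UMIs were summed over the barcodes of a group with Python 3.11.15 and scipy 1.17.1 and given per 1000000 UMIs of the group (CPM). Each condition had 1 library, so no test between conditions was made, and genes past 2-fold are counted by size. Ratios were compared against marker-negative cells for genes with a mean level of at least 30 CPM, and between libraries for genes with at least 50 UMIs. For log2 ratios 0.5 was added to both counts. Free RNA was not removed, and doublets were called with Scrublet (scanpy 1.11.5) and kept. On simulated counts 100% of the 4-fold changes were recovered between libraries and 93.7% against marker-negative cells, and 0.415% and 0.203% of unchanged genes passed 2-fold. The simulated counts held counting error only, with no spread between cells, mice or libraries. These shares are therefore no measure of how many genes would pass in the data without a true difference.

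Named genes are the 12 highest and 8 lowest against marker-negative cells by the library nearer to no difference, and the 10 highest and 10 lowest between libraries without genes of the selection, mitochondrial, hemoglobin and cell type marker genes, plus list members of high level or past 2-fold. A gene that this rule names is not reported here. The members of the group and the gene lists were chosen with earlier results of these data known. The alternatives tried were other limits on detected genes, mitochondrial share, cardiomyocyte share, doublets, other lineages, arterial UMIs and genes, thinning, shared barcodes and filters on genes.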

Additional observations from a re-analysis of the deposited data

Results flagged for a closer look

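In 13 genes the TAC to Sham ratio lay on one side of 1 in the members and on the other side in marker-negative cells, with both counting intervals past 1; each group has 1 library per condition, so the difference between the ratios was not tested. Lower in TAC members and higher in TAC marker-negative cells were Tmem245 (0.475 in the members, 1.25 in marker-negative cells), Mgp (0.513 and 1.5), Clint1 (0.56 and 1.19), Nav3 (0.612 and 1.08), Pcdh7 (0.624 and 1.22), Klf7 (0.69 and 1.12), Plxna2 (0.705 and 1.1), Trpm3 (0.724 and 1.37), Arhgef12 (0.756 and 1.2), Lims2 (0.794 and 1.11) and Dnm3 (0.853 and 1.12). Higher in TAC members and lower in TAC marker-negative cells were Cdk19 (1.45 and 0.806) and Mecom (1.15 and 0.919). They were picked out of 1620 genes compared, and Mgp rests on the single Sham cell described above. Several intervals in the members barely passed 1, with upper ends of 0.999 for Trpm3, 0.995 for Lims2 and Pcdh7 and 0.992 for Dnm3.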

How the results depend on the processing

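No paired analysis was possible because only a single library stands for Sham and for TAC. The share of members and the summed ratio of the arterial genes outside the selection moved little under the limits on detected genes, mitochondrial and cardiomyocyte share, without doublets or shared barcodes, and the summed ratio also on levels without mitochondrial genes. The count of genes lower than in marker-negative cells went from 45 to 66 without doublets and to 59 with the cardiomyocyte limit of 0.3%. With 3 or more arterial UMIs the shares were 1.78% in Sham and 2.26% in TAC, and with at least 2 different genes 2.35% and 2.89%. Left out of the sum in turn, Sox17 gave 2.09% and 3.56%, Stmn2 3.29% and 2.6%, the only one of these settings with a lower share in TAC than in Sham, and Sema3g 3.55% in Sham, while thinning gave 3.16% and 3.63%. The summed arterial ratio was 3.01 and 2.52 at 3 UMIs, 2.61 and 2.53 with 2 genes, 2.47 and 2.24 without Sox17, 2.33 and 2.68 without Stmn2, 2.36 in Sham after thinning, and 2.03 in TAC without Gja5. Against marker-negative cells the genes higher and lower numbered 198 and 171 at 3 UMIs, 162 and 132 with 2 genes, 222 and 152 after thinning, 208 and 237 with the low filter of 10 CPM and 46 and 10 with the high one of 100, and the lower ones 90 without Sox17, 103 without Stmn2 and 29 when both intervals had to lie past 1, a requirement added after seeing the data. Between libraries the higher and lower genes numbered 21 and 17 at 3 UMIs, 30 and 18 without Sox17, 3 and 6 after thinning, 288 and 156 from 20 UMIs and 7 and 7 from 100, and the higher ones 24 without other lineages, 29 with 2 genes and 18 without Stmn2. Thinning and stricter rules leave fewer UMIs, and otherwise the cause was not tested. Of these genes 0 and 4 were among the 49 higher and 28 lower of all members at 3 UMIs, and 12 and 8 with 2 genes. The same counts were 7 and 4 without Sox17, 8 and 10 without Stmn2, 0 and 3 after thinning, and 14 and 6 without other lineages. More were kept without Gja5, 34 of 41 higher and 18 of 26 lower, and without Sema3g, 33 of 50 and 14 of 24. The cardiomyocyte limit of 0.3% kept 33 of 50 and 20 of 28. Without doublets 34 were higher, 26 of them among the 49, and 20 lower, 12 of them among the 28. Further alternatives were added after seeing the data: without the macrophage-rich TAC cell 35 were higher and 21 lower, and without the top cell of each gene 59 and 31.

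The log2 TAC to Sham ratio changed sign for Ubash3b after thinning (-0.71), for F13a1 without doublets (-0.016) and without other lineages (-0.28), for Itsn1 without doublets (-0.076), without other lineages (-0.63) and without Stmn2 (-0.25), for Kirrel3 at 3 UMIs (-0.82) and without Stmn2 (-1.47), and for Lama2 without doublets (0.24) and without other lineages (0.23). Zbtb16 lay between -2.50 and -1.38 and Ppp1cb between 1.28 and 2.05 under every alternative run. Single libraries of 85 and 122 cells limit the levels of genes with few UMIs, and differences between mice were not measured.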
